A study of Mus musculus with 5 samples.

Results

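The 9 genes described here encode the constant parts of mouse antibodies and proteins tied to antibody secretion. They were taken from the 55450 genes of the count matrices by symbol. Ighm, Igha, Ighg1, Ighg2b, Ighg2c and Ighg3 are heavy-chain constant genes, Igkc is the kappa light-chain constant gene, Jchain encodes the joining chain, and Mzb1 encodes a chaperone partner of the endoplasmic reticulum. The set was chosen by the measured UMI counts of these genes in these libraries, that is by their levels, class make-up and concentration in few barcodes, so those values are a description and carry no test. Cortical cells of C57BL/6J mice were freed with papain and DNase, cleared of debris on Percoll and captured in droplets, and the 3′ ends of their transcripts were counted with unique molecular identifiers (UMIs). Libraries came from sham-operated mice and, following traumatic brain injury, from day 1, day 3, day 7 and day 14, with 1 library per group. Titles of the 4 injured libraries specify the injury site and the sham title specifies none, so the place sampled and the injury cannot be told apart. The age, the sex, the kind of injury and the number of mice behind a library are not given in the sources used here.

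An antibody joins heavy and light chains, and the heavy-chain constant gene in use sets its class: IgM from Ighm, IgA from Igha, and the IgG subclasses from the Ighg genes. A B cell begins with Ighm and can switch to a constant gene further along the locus by cutting out the DNA between, and its secreting descendant, the plasma cell, devotes much of its messenger RNA to immunoglobulin. The joining chain ties IgM and IgA into polymers through a cysteine near the end of their secreted heavy chains, and Mzb1 assists the assembly of antibodies. Healthy brain tissue holds few B cells, and plasma cells are known there mainly from inflammation.

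The ends of the secreted heavy chains are printed because the joining chain is described below against each class. Each line is the last 63 bases of the secreted coding sequence, stop codon included, read 5′ to 3′ on the minus strand from the GRCm38 genome with GENCODE release 21. They lie at chr12:113420867-113420929 (Ighm), chr12:113258768-113258830 (Igha), chr12:113306389-113306451 (Ighg2b) and chr12:113287389-113287451 (Ighg2c), within coding exons. Capitals mark the cysteine codon just before the last amino acid codon.
Ighm: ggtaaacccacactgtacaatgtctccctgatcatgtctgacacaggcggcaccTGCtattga
Igha: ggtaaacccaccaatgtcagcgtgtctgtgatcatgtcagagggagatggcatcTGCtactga
Ighg2b: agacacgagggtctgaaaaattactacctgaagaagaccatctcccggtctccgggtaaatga
Ighg2c: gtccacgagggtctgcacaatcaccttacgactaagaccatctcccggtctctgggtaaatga
The same stretch of Ighg1 and Ighg3 also held 0 cysteine codons. Among the 6 heavy-chain genes only Ighg2b and Ighg2c shared any 50-base exon window, 56 of the 1065 windows of Ighg2b or 5.26%, so reads could pass between these genes only at a small part of their length. The 6 heavy-chain genes lie on chromosome 12 between Igha (113254830-113260236) and Ighm (113418558-113422730), Igkc on chromosome 6 (70726435-70726966) and Jchain on chromosome 5 (88519809-88527891).

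After filters and removal of called doublets, 10539 sham barcodes and 11774, 9506, 11959 and 11543 barcodes at days 1, 3, 7 and 14 were kept. Depth rose in the order of the time points, from 9821924 UMIs in sham to 121024054 at day 14, with medians of 747 and 8534 UMIs per barcode. Between 27 and 59 barcode sequences were shared by any pair of libraries. Levels are UMI counts scaled to the library total (CPM), over all kept barcodes of a library. A 3′ count gives each captured molecule 1 UMI whatever its length, so levels were not divided by gene length. An order of levels between genes is an order of counts, and how fully each gene was counted was not tested. Each interval is at 95% and covers counting error only, and a gene at 0 was set against a floor of 3 UMIs in that library. A fold given as at least a value is the fold over that floor, not a counting limit. With no second library in any group there was no replicate, no test and no p-value, and every comparison is between libraries.

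Ighm was the only immunoglobulin constant gene of the 7 with an appreciable level in sham cortex, and the other constant genes appeared later. Ighm stood at 130 CPM in sham (123 to 138), 47.9 at day 1, 26.2 at day 3, 71.8 at day 7 and 437 (433 to 440) at day 14. Against sham, the log2 ratio of Ighm was -1.44 at day 1 (-1.56 to -1.33), -2.31 at day 3, -0.86 at day 7 (-0.94 to -0.77) and 1.75 at day 14 (1.67 to 1.83). Ighm was therefore below sham at days 1, 3 and 7 and above it at day 14, with no overlap of the counting intervals.

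Igkc, the light chain partner of most mouse antibodies, went the other way in the early libraries. It had 8 UMIs in sham, 99 at day 1, 1473 at day 3, 718 at day 7 and 1479369 at day 14, or 0.815, 4.18, 37.9, 7.20 and 12224 CPM. In log2 units Igkc exceeded sham by 2.36 (1.32 to 3.61) on day 1, 5.54 (4.56 to 6.76) on day 3, 3.14 (2.16 to 4.36) on day 7 and 13.87 (12.89 to 15.09) on day 14, each resting on the 8 sham UMIs.

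In the kept barcodes the switched heavy-chain genes were nearly absent before day 14, with the exception of Igha at day 3. For Igha at day 1 this rested on the doublet call, since with called doublets kept the IgA share of heavy-chain UMIs there was 32.3% in place of 2.24%, and 577 Igha UMIs lay in 1 removed barcode. Igha, the IgA gene, had 0 UMIs in sham, 26 at day 1, 1268 at day 3, 12 at day 7 and 92999 at day 14, or 0, 1.10, 32.7, 0.120 and 768 CPM. It was at least 3.59-fold higher than sham at day 1, at least 107-fold at day 3 and at least 2516-fold at day 14, while the day 7 level lay under the sham floor of 0.305 CPM. Ighg2b, an IgG gene, had 1, 0, 17, 35 and 359108 UMIs from sham to day 14. Its 2967 CPM at day 14 gave a log2 ratio of 14.83, with an interval of 12.35 to 20.13 set by the 1 sham UMI. Ighg2c had 0 UMIs up to day 3, 128 at day 7 (1.28 CPM) and 42593 at day 14 (352 CPM), at least 1152-fold above sham. Ighg1 had 0 UMIs in every library before day 14 and 32150 there, 266 CPM, at least 870-fold above sham. Ighg3 likewise had 0 UMIs before day 14 and 144 there, 1.19 CPM, at least 3.90-fold above sham.

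The genes tied to secretion were absent from the sham counts. Jchain had 0, 4, 334, 29 and 76972 UMIs from sham to day 14, or 0, 0.169, 8.6, 0.291 and 636 CPM, and was at least 28.2-fold above sham at day 3 and at least 2082-fold at day 14. Mzb1 (chromosome 18, 35647267-35649367) shares 57.2% of its exon bases with SPATA24 on the same strand, so its counts are uncertain. It had 0, 0, 1, 1 and 53 UMIs. Its 0.438 CPM at day 14 was 1.43-fold the sham floor, and its interval (0.328 to 0.573) reached below the sham upper limit of 0.376 CPM. At day 14 the order of levels ran from Igkc through Ighg2b, Igha, Jchain, Ighm, Ighg2c, Ighg1 and Ighg3 to Mzb1. No neighbours in that order had overlapping counting intervals, but the place of Mzb1 is as uncertain as its counts. At day 7 the order was Ighm, Igkc, Ighg2c, Ighg2b, Jchain and Igha, and the intervals of Ighg2b (0.245 to 0.488 CPM) and Jchain (0.195 to 0.418 CPM) overlapped, as did those of Jchain and Igha (0.0622 to 0.210 CPM).

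**Figure D1:**
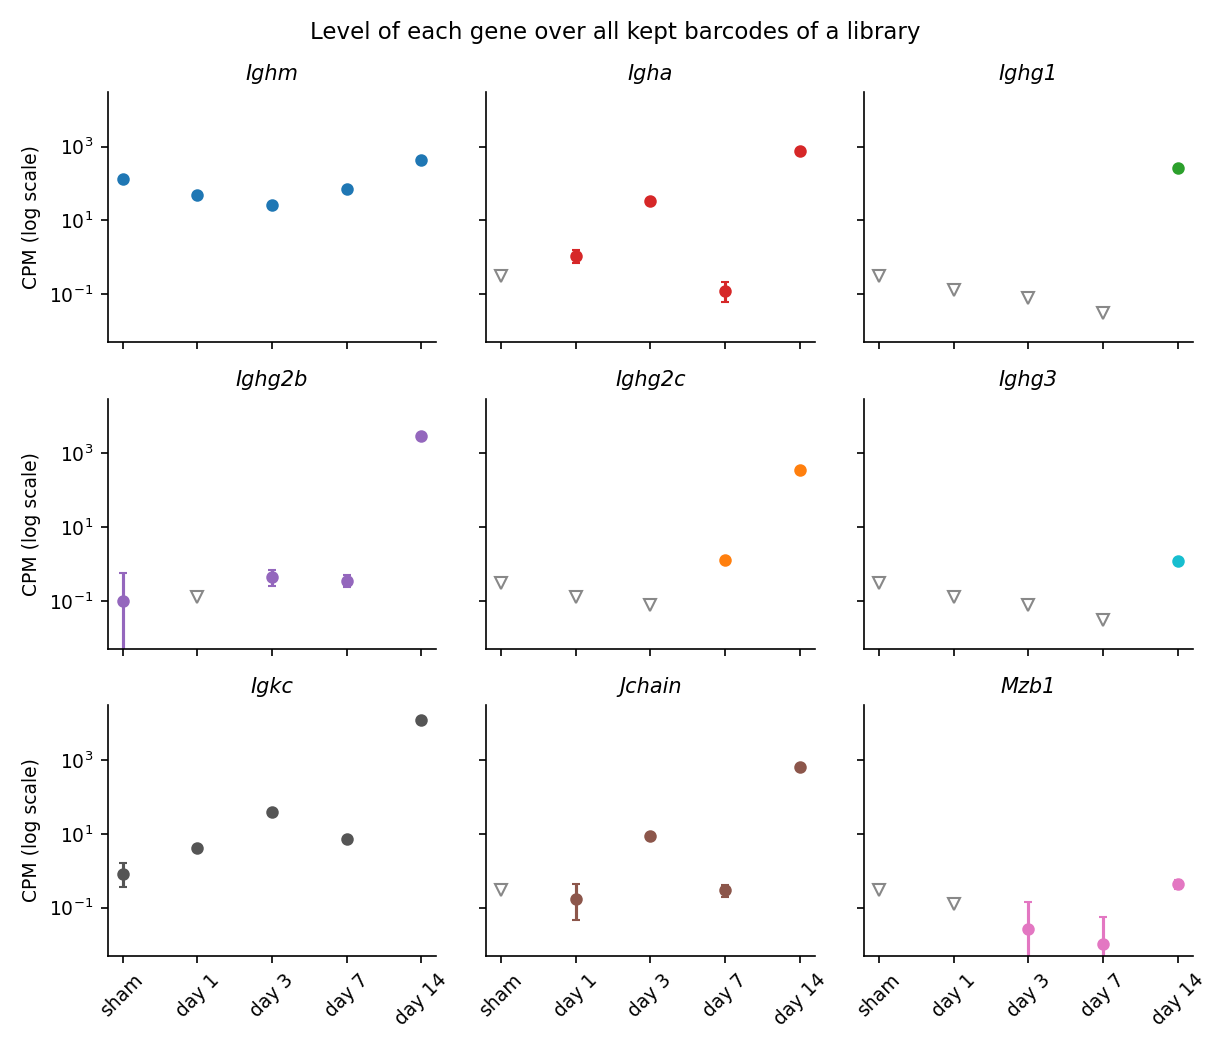
Level of each of the 9 genes in CPM (log scale) over all kept barcodes of each library, with points for the level, bars for the 95% counting interval and open triangles for the floor of 3 UMIs where a gene had 0. Ighm falls from 130 CPM in sham to 26.2 at day 3 and reaches 437 at day 14, while Ighg1 and Ighg3 leave the floor only at day 14.

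Summed over the 7 constant genes, the level was 131, 53.2, 97.2, 80.8 and 17015 CPM from sham to day 14. Against sham the log2 ratios were -1.30 at day 1 (-1.42 to -1.19), -0.43 at day 3, -0.70 at day 7 and 7.02 at day 14 (6.94 to 7.10). The day 3 value rested on 1 barcode, since leaving out the leading barcode of each library moved it to -1.20. With only barcodes of at least 1000 UMIs the day 3 value was 0.093, with an interval that covered 0 (-0.056 to 0.244). The day 1 value moved to -0.24 when called doublets were kept. Without Ighm, the other 6 constant genes summed to 9, 125, 2758, 893 and 2006363 UMIs.

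Of all genes with a mean of at least 1 CPM, 14.1% were at least 2-fold higher and 10.1% at least 2-fold lower at day 1 than in sham, and of the 2 measured members Igkc was higher and Ighm lower. At day 3, 4 members were measured, with Igha, Igkc and Jchain higher against a background of 15.5% of genes and Ighm lower against 19.3%. At day 7, 1 of 2 measured members was higher, Igkc, against 10.7% of genes, and none was lower against 12.2%. At day 14 all 7 measured members were higher, against 11.1% of genes higher and 23.7% lower. Ighg3 and Mzb1 did not reach the minimum level, and a member absent from sham could reach it only by being high after injury, so these counts give no support of their own.

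The UMIs sat in very different numbers of barcodes. At day 14, 5 barcodes held 50% of the Ighm UMIs, against 431 in sham, 291 at day 1, 274 at day 3 and 875 at day 7. The largest Ighm count in any barcode was 5, 8, 8 and 12 UMIs from sham to day 7 and 7011 at day 14. The 10 leading barcodes held 2.74%, 4.49%, 4.82% and 1.49% of Ighm in the earlier libraries and 76.2% at day 14. Ighm was thus thinly spread up to day 7 and concentrated at day 14.

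Igkc and the switched genes were concentrated wherever they were abundant. At day 14, 50% of the UMIs lay in 34 barcodes for Igkc, 18 for Ighg2b, 13 for Jchain, 6 for Igha and 4 each for Ighg1 and Ighg2c. The 10 leading barcodes held 94.7% of Ighg1, 94.2% of Ighg2c and 71.5% of Igha, but 32.4% of Ighg2b and 19.8% of Igkc, which were shared by more barcodes. At day 3, 50% of Igha, Igkc and Jchain UMIs each lay in 1 barcode. At day 7 the counts were even: 128 Ighg2c UMIs lay in 125 barcodes with at most 2 in any, and 718 Igkc UMIs in 617 barcodes with at most 16 in any. The 26 Igha UMIs of day 1 lay in 26 barcodes.

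**Figure D2:**
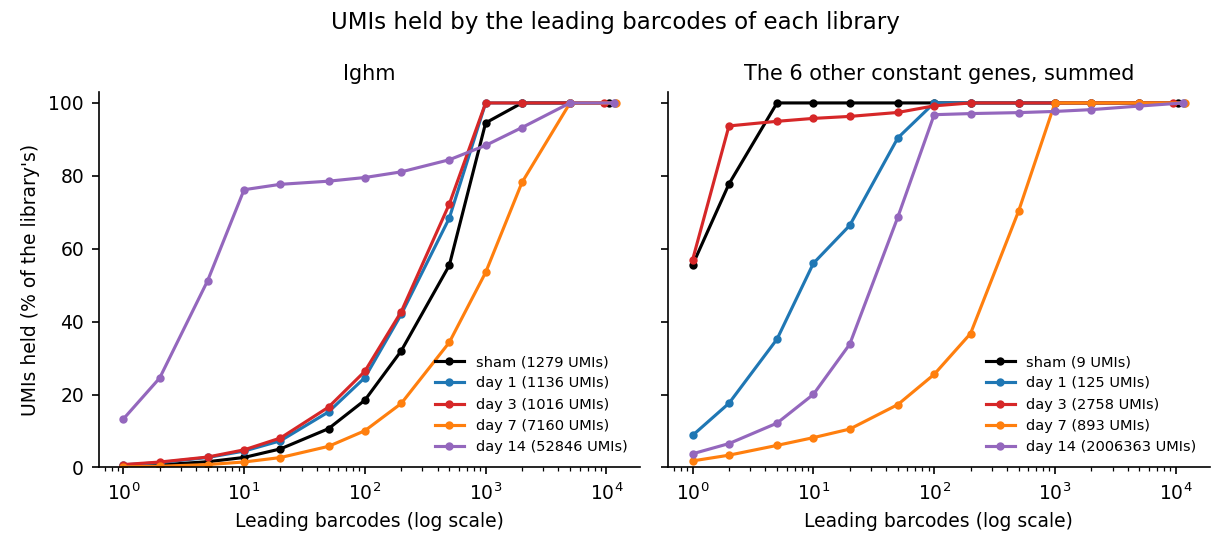
Share of a library's UMIs (percent) held by its leading barcodes, by number of barcodes on a log scale, for Ighm and for the other 6 constant genes summed, with a line per library. The day 14 line for Ighm is at 76.2% with 10 barcodes, where the other 4 libraries are below 5%, and at day 3 the first 2 barcodes hold 93.7% of the other 6 genes.

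Barcodes were called immunoglobulin-rich where the 7 constant genes had at least 50 UMIs and at least 10% of the barcode's UMIs. The sham library had 0 such barcodes of 10539, so that a share of up to 0.0285% could go unseen, and the injured libraries 0 of 11774 at day 1, 2 of 9506 at day 3, 0 of 11959 at day 7 and 105 of 11543 at day 14, or 0.910% (0.745 to 1.10, exact binomial). At day 14 the limit fell in a sparse range: 2 barcodes lay between 5% and 10%, 3 between 10% and 20%, and 102 above 20%, with 8.95% the highest share outside and 10.9% the lowest inside. The 105 rich barcodes had a median of 33146 UMIs (702 to 108083) against 8505 in the other barcodes, and the constant genes made up a median of 61.5% of their UMIs. They held 2.78% of the library's UMIs and 96.3% of its constant-gene UMIs. By gene this share was 77.6% for Ighm, 94.3% for Igha, 94.8% for Ighg1, 96.1% for Ighg2b, 94.4% for Ighg2c, 87.5% for Ighg3, 97.3% for Igkc and 97.6% for Jchain. Of the 53 Mzb1 UMIs, 49 were in rich barcodes. All of them had passed the doublet call, and whether the deepest hold more than 1 cell was not tested.

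The 2 rich barcodes of day 3 were both IgA. The deeper had 5222 UMIs in all, with 765 of Igha and 806 of Igkc, and the other 3256 UMIs, with 446 of Igha and 567 of Igkc. Together they held 95.5% of the library's Igha, 93.2% of its Igkc and 97.0% of its Jchain, and 1 Ighm UMI. Both also had Ighv5-4 as their leading heavy-chain variable gene, with 7 UMIs each. Without its leading barcode the IgA share of heavy-chain UMIs at day 3 dropped from 55.1% to 32.8%.

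At day 14 nearly every rich barcode used a single heavy-chain gene. Ighg2b led in 50 of the 105 (47.6%, 37.8 to 57.6), Igha in 22, Ighm in 15, and Ighg1 and Ighg2c in 9 each, while Ighg3 led in 0. The leading gene had a median of 99.9% of the barcode's heavy-chain UMIs, with at least 99% in 89 barcodes and at least 95% in 102. Of the 3 below 95%, 2 were shallow, at 2919 and 1289 UMIs. The other was a barcode of 44896 UMIs with 4859 Ighg2b and 3554 Ighg1 UMIs, in which Ighg2b made up 57.6%.

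Counts of the leading gene overlapped between classes. The median was 6659 Ighg2b UMIs per Ighg2b-led barcode (409 to 18927), 6072 for Ighg2c (118 to 7653), 3956 for Ighg1 (102 to 5775), 3622 for Igha (51 to 12263) and 3389 for Ighm (75 to 7011). Igkc ran alongside at a median of 2.70 UMIs per heavy-chain UMI (1.24 to 14.6), from 2.48 in Ighg2b-led to 3.44 in Ighg1-led barcodes. Over the whole library, heavy-chain UMIs were 61.9% Ighg2b, 16.0% Igha, 9.11% Ighm, 7.35% Ighg2c, 5.54% Ighg1 and 0.0248% Ighg3. In sham, at day 1 and at day 7, in contrast, Ighm made up 99.9%, 97.8% and 97.6% of heavy-chain UMIs.

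**Figure D3:**
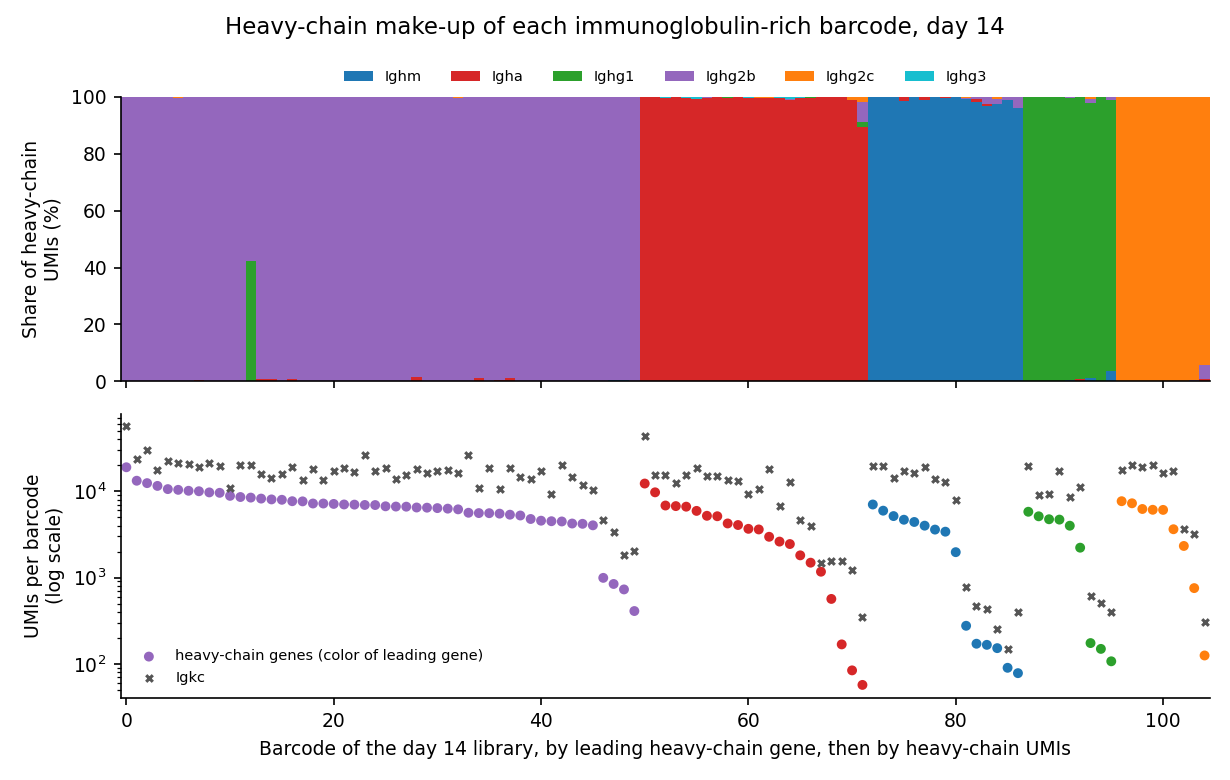
Heavy-chain make-up of the 105 rich barcodes of day 14, as the share of heavy-chain UMIs by gene (percent, upper panel) and as heavy-chain and Igkc UMIs per barcode (log scale, lower panel), ordered by leading gene and then by count. Nearly every column is a single color, and the exception among the Ighg2b-led barcodes is the barcode with 3554 Ighg1 UMIs.

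Small counts of a second class were not spread evenly. Ighg3, which led in no barcode, had 126 of its 144 UMIs (87.5%) in Igha-led barcodes. In 8 of these it had 5 to 33 UMIs, at most 0.860% of heavy-chain UMIs, and 0 barcodes led by another gene had 5 or more. In the reverse direction, 8 of the 68 IgG-led barcodes had 24 to 91 Igha UMIs, at most 1.41% of heavy-chain UMIs, whereas 58 had 0 to 6. All 8 were led by Ighg2b. The leading gene had 5285 to 9960 UMIs in these barcodes, and the part of free RNA in the small counts was not tested.

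Jchain, which serves the polymers of IgM and IgA, followed the class of the barcode. Its median was 41.7 UMIs per 100 heavy-chain UMIs in Ighm-led barcodes (0 to 80.7) and 32.8 in Igha-led barcodes (7.27 to 92.6). In IgG-led barcodes the medians were 6.38 with Ighg1 (0.935 to 22.9), 4.30 with Ighg2c (1.60 to 35.1) and 3.01 with Ighg2b (0.0748 to 15.5). The classes that carry the terminal cysteine codon printed above thus had the higher medians, with overlap. Over all 68 IgG-led barcodes the median was 3.30 and the highest 35.1, and 18 of the 37 Ighm- or Igha-led barcodes lay at or below that highest value. The 2 IgA barcodes of day 3 had 26.1 and 27.8 Jchain UMIs per 100 heavy-chain UMIs. Jchain transcripts were present in IgG-led barcodes too, at 4 to 1307 UMIs in the Ighg2b-led ones.

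The Ighm-led barcodes fell into deep and shallow ones. In 9 with 28612 to 52619 UMIs there were 1964 to 7011 Ighm UMIs and 26.0 to 80.7 Jchain UMIs per 100 heavy-chain UMIs. In the other 6, with 702 to 1832 UMIs, there were 75 to 274 Ighm UMIs, and Jchain had a median of 3.55 per 100, from 0 to 48.7. The deep barcodes had 3980 UMIs of Slpi, 423 of Xbp1 and 80 of Cd79a, and the shallow ones 4, 14 and 1. Every value of the Ighm class below 26.0 came from a shallow barcode, and the part of free RNA in those was not tested.

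**Figure D4:**
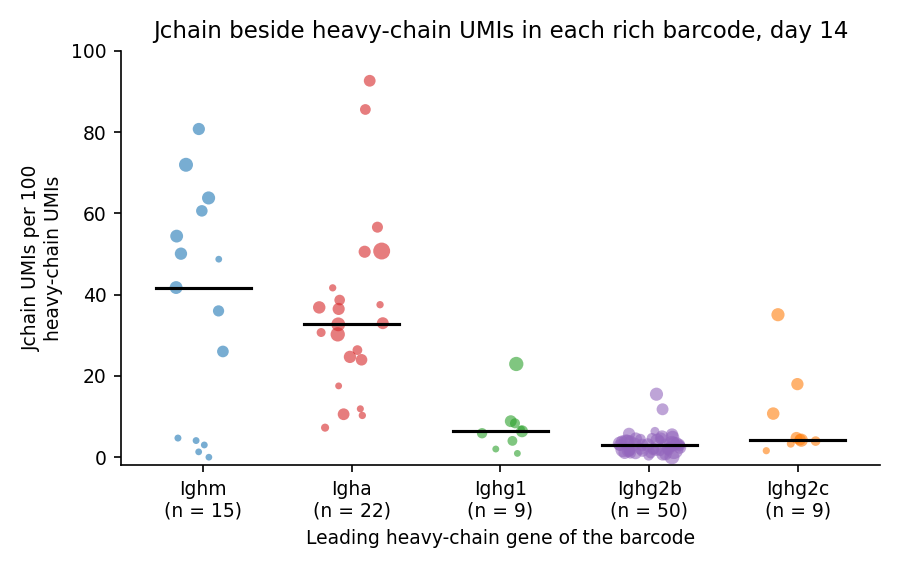
Jchain UMIs per 100 heavy-chain UMIs in each of the 105 rich barcodes of day 14, by leading heavy-chain gene, with a point per barcode. Points are larger for more UMIs of all genes in the barcode, and a line marks the median. The medians are 41.7 for Ighm and 32.8 for Igha, against 6.38 or less for the IgG genes, and the ranges overlap.

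Variable genes, the parts of the chains that bind antigen, were not among the 9 genes. They lie on the same transcripts as the constant genes, so their level and place in rich barcodes are no separate support. They had 1, 2, 49 and 6 UMIs from sham to day 7 and 55827 at day 14, of which 98.1% were in rich barcodes. A 3′ library reads these segments only in part and several are near-identical copies, so each name is uncertain and a shared name is no proof of a shared clone. With at least 5 UMIs, a leading heavy-chain variable gene was found in 86 of the 105 rich barcodes, and 19 genes were named. Ighv1-80 led in 46 of them, 41 led by Ighg2b and 5 by Ighm. Among the Ighg2b-led barcodes with a named gene this was 41 of 46. Ighv1-39 led in 9, all Igha. Ighv5-4 led in 5, 3 with Ighg1 and 2 with Ighg2c, and Ighv5-9-1 in 5, 2 with Igha and 3 with Ighg2c. Variable genes and classes were thus unevenly paired, and some names occurred with 2 classes.

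The second-class counts can be set beside the variable genes. All 8 Ighg2b-led barcodes with 24 to 91 Igha UMIs had Ighv1-80, as did 41 of the 46 Ighg2b-led barcodes with a named gene, and the median of those 41 was 2 Igha UMIs. Of the 8 Igha-led barcodes with at least 5 Ighg3 UMIs, 7 had Ighv1-39, which led in 9 of the 18 Igha-led barcodes with a named gene. The pair of Ighm-led barcodes with Ighv1-64 carried 40 and 67 Igha UMIs. The 5 Ighm-led barcodes with Ighv1-80 had at most 2 Igha UMIs, and a median of 54.4 Jchain UMIs per 100 heavy-chain UMIs against 2.98 in the 41 Ighg2b-led barcodes with the same variable gene. Barcodes sharing a variable gene name thus differed in Jchain with their constant gene.

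On the light-chain side, with at least 20 UMIs, a leading variable gene was found in 89 of 105 barcodes. The lambda gene Iglv1 led in 69 and the kappa gene Igkv3-2 in 8. Ighv1-80 with Iglv1 was the pair of 43 of the 84 barcodes with both named. Yet the lambda constant genes made up 0.836% of light-chain constant UMIs in rich barcodes and at most 3.40% in any. Iglv1 UMIs were found in 93 of 105 rich barcodes at a median of 187, or 1.46 per 100 Igkc UMIs, and at 15 and 17 UMIs in the day 3 pair. Lambda variable genes join lambda constant genes in a light chain, so Iglv1 was not read as the chain in use.

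The other genes of rich barcodes were compared in CPM of the UMIs outside the immunoglobulin loci, which the rich limits did not use. Against the other barcodes of day 14, 12.8% of 14680 genes were at least 2-fold higher and 24.3% at least 2-fold lower, with a median log2 ratio of -0.19. In the list of plasma cell regulators and surface genes, 10 of 10 measured were at least 2-fold higher, with a median log2 ratio of 5.40. Xbp1, the transcription factor that expands the secretory machinery, stood at 3819 against 78.5 CPM. Prdm1, which drives plasma cell formation, stood at 247 against 19.2, Irf4, which acts with it, at 208 against 5.69, and the B cell coactivator Pou2af1 at 314 against 0.323. Sdc1, the plasma cell surface marker CD138, was at 263 against 2.16 CPM, and Tnfrsf17, the survival receptor BCMA, at 264 against 4.83. Slamf7 (359 against 36.6), Tnfrsf13b (285 against 44.9), Eaf2 (356 against 0.860) and Ell2 (241 against 25.6) make up the rest of the list. Ell2 is an elongation factor that favors the secreted form of heavy-chain transcripts.

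The secretory pathway list also lay above the other barcodes, as 21 of 21 measured genes passed 2-fold upward and the median log2 ratio was 3.04. Ssr4, a subunit of the translocon complex, had 7398 against 464 CPM, the chaperones Hsp90b1 and Hspa5 4291 against 616 and 1485 against 393, and the disulfide isomerase Txndc5 1877 against 24.6. Derl3, of the degradation machinery, was at 614 against 1.73 and the prolyl isomerase Fkbp11 at 440 against 1.44. The remaining 15 genes had log2 ratios between 1.65 (Hyou1) and 5.11 (Creld2).

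In the B cell list, 11 of 15 measured genes were at least 2-fold higher and 2 at least 2-fold lower. Cd79a and Cd79b, the signaling chains of the B cell receptor, were at 786 against 2.09 and 603 against 17.1 CPM. Vpreb3 (120 against 1.46), Fcrla (90.5 against 1.77), Ly6d (396 against 7.29), Ralgps2 (191 against 27.4) and Ebf1 (50.9 against 4.4) were also higher. Ms4a1, which encodes CD20, was at 54.2 against 0.843 CPM. Genes of the earlier B cell stage were sparse: Pax5 had 0 UMIs in rich barcodes and Fcer2a 0, and Bach2, a brake on plasma cell formation, was at 5.66 against 19.6 CPM. The lambda constant genes Iglc1, Iglc2 and Iglc3 were higher by 10.72, 10.69 and 9.12 on the log2 scale, and Ighd and Ighe had 0 UMIs.

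Of 3 germinal centre genes measured, 1 was at least 2-fold higher and 1 at least 2-fold lower. Bcl6, the germinal centre repressor, was at 4.04 against 17.4 CPM, and Mki67, a mark of dividing cells, at 60.6 against 28.0. Of 9 homing and survival receptors measured, 3 were at least 2-fold higher: Ccr10 (77.6 against 0.272), the chemokine receptor of IgA plasma cells, Itga4 (250 against 53.7), an integrin chain, and Ccr9 (24.2 against 7.21), a gut homing receptor. Cxcr4, the receptor for Cxcl12, was at 50.9 against 33.3 CPM. The survival factors had 1 of 4 measured genes higher, Il10 at 20.2 against 4.01 CPM, and 3 lower. The receptors that bind antibody had 7 of 7 measured genes lower, among them Fcgr3 at 84.9 against 432 CPM and Fcer1g at 483 against 2008, both of which phagocytes use to take up coated targets.

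These genes did not move alike in the library sums. At day 14 against sham, 5 of 21 secretory pathway genes were at least 2-fold higher and 3 lower, 4 of 10 plasma cell genes higher and 1 lower, and 8 of 12 B cell genes higher and 1 lower, beside 11.1% of all genes higher and 23.7% lower. Xbp1 was at 182, 133, 68.8, 81.3 and 115 CPM from sham to day 14, and Tnfrsf17 at 17.4, 0.464, 1.57, 7.13 and 7.40. The Fc receptor Fcgr4 was at 9.16 CPM in sham, 111 at day 1, 35.0 at day 3, 27.7 at day 7 and 99.9 at day 14. Cxcl12, a chemokine of plasma cell niches, was at 39.4 CPM in sham, 12.1 at day 1, 13.9 at day 3, 116 at day 7 and 9.43 at day 14.

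Ranked by the ratio to all other barcodes of the 5 libraries with 10 CPM added to both, which holds back genes near 0 elsewhere, the genes highest in the 107 rich barcodes were, in order, Slpi, Cd79a, Ly6c2, Derl3, Txndc5, Oosp1, Xbp1, Fkbp11, Pou2af1, Eaf2, Ly6d, Trp53inp1, Epcam, Creld2 and Cd79b. Slpi, a secreted protease inhibitor, was at 3667 CPM of all UMIs against 12.6 and was detected in 68 of 107 barcodes. Ly6c2, a surface antigen also of monocytes, was at 1441 against 55.9 in 90 barcodes, and Oosp1 at 144 against 0.0690 in 74. Epcam, an adhesion molecule, was at 124 against 3.02.

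Several of these differed with the class of the barcode, here again in CPM of non-immunoglobulin UMIs at day 14. Ccr10 was at 228 CPM in Igha-led barcodes (169 to 301), with a UMI in 16 of 22. In Ighg2b-led barcodes it was at 14.1 CPM (6.77 to 26.0), where all 10 UMIs were in 1 of 50. The other classes lay between, at 160 with Ighg2c (87.6 to 269), 105 with Ighm (59.0 to 174) and 86.9 with Ighg1 (34.9 to 179). Their intervals all overlapped that of Igha, so Ccr10 did not separate Igha-led from IgG-led barcodes as a whole. Tnfrsf17 was at 626 in Ighm-led and 634 in Igha-led barcodes, against 229 in Ighg2c-led, 100 in Ighg2b-led and 99.3 in Ighg1-led ones. Ms4a1 went the opposite way, with 62 of its UMIs in 27 of the 50 Ighg2b-led barcodes, at 87.6 CPM (67.1 to 112). It had 1 UMI in the 22 Igha-led barcodes, 2 each in the Ighm-led and Ighg1-led ones and 0 in the Ighg2c-led ones. With Ighg1 this was 24.8 CPM (3.01 to 89.7), an interval that overlapped that of Ighg2b. Oosp1 was at 547 CPM with Ighg2b, in 47 of 50 barcodes, and 45.6 with Igha, in 6 of 22. It was at 378 with Ighg2c, 373 with Ighg1 and 169 with Ighm. Slpi ranged from 3870 CPM with Igha to 28004 with Ighm, but 1 barcode held 44.7% of the Ighm-led UMIs. Mzb1 showed no such difference: 36 of its 49 UMIs in rich barcodes were in Ighg2b-led ones, at 50.8 CPM (35.6 to 70.4). The intervals of the other classes all overlapped this one, as with Igha at 27.4 CPM (10.0 to 59.6). Barcodes of 1 library are not replicates, 41 of the 50 Ighg2b-led ones shared a variable gene name, and no test was made.

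Clusters were built without the immunoglobulin genes. At day 14, 71 of the 105 rich barcodes fell in cluster 26, which took its monocyte/macrophage-like name from its other cells and also held Slpi and MHC class II genes among its leading genes. Another 10 fell in the T or NK cell-like cluster 24, 10 in the unnamed cluster 14, 6 in microglia-like cluster 3 and 8 elsewhere. At the finer resolution of 2, 77 fell in a cluster with the markers of plasma cells. That cluster held 133 barcodes of day 14 and 303 over all libraries, so it also held barcodes that were not rich. The 2 rich barcodes of day 3 fell in the microglia-like class at that resolution. Most, not all, rich barcodes thus shared a profile beyond their immunoglobulin.

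Below the rich limits, 5 barcodes at day 1, 1 at day 3 and 24 at day 14 had at least 10 constant-gene UMIs making up at least 1% of their total. The 5 of day 1 had 522 to 1033 UMIs, 27 of Ighm, 39 of Igkc and 0 of any switched gene, and 4 of them also had Cd79a, Ms4a1 or Ighd. At day 14, 10 of the 24 had any of these B cell genes, and those 10 held 69 of the 86 Ighm UMIs and 1 of the 232 Igha UMIs. Ighd, the IgD gene of unswitched B cells, had 19 UMIs here and 0 in rich barcodes. Barcodes with such B cell genes past these limits were thus few in every library. At day 14, barcodes below the limits still held 162 Ighd, 245 Cd79a and 99 Ms4a1 UMIs. B cells below the limits were not counted.

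Outside rich and such bearing barcodes, 3.54% of the constant-gene UMIs of day 14 remained, spread over every cell class. Igkc was found in 89.95% of microglia-like cells (median 8044 UMIs) and 90.1% of oligodendrocyte-like cells (median 8949 UMIs), which do not make antibody. Thinned to 500 UMIs per cell these shares were 16.7% and 16.5%. Across 11 classes Igkc ranged from 240 CPM in endothelial-like to 457 in neutrophil-like cells, 1.90-fold, and Ighg2b from 98.8 to 167 CPM, 1.69-fold. Igha, Ighg1, Ighg2c and Jchain ranged over 2.47-fold, 2.11-fold, 1.73-fold and 2.30-fold. A low count of these genes in a barcode of day 14 was not read as expression by that cell, and the part of free RNA was not tested.

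The spread UMIs kept similar ratios from class to class. Igkc per Ighg2b UMI lay between 2.43 and 3.19 in the 11 classes, against 4.17 in rich barcodes. Igha per 100 Ighg2b UMIs lay between 30.5 and 44.6, against 25.4 in rich barcodes, and Jchain per 100 Ighg2b between 8.93 and 15.8, against 21.8. Among switched genes the spread UMIs were 60.1% Ighg2b, 22.2% Igha, 10.4% Ighg2c, 7.32% Ighg1 and 0.0745% Ighg3, and those of rich barcodes 68.5%, 17.4%, 7.98%, 6.05% and 0.0250%. The order of the 5 genes was the same in both, with less Ighg2b and more Igha outside the rich barcodes.

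At day 7, where no rich barcode was found, spread counts were present as well. Igkc was at 6.88 CPM in microglia-like and 5.39 in astrocyte-like cells, a ratio of 1.28 (0.999 to 1.64), and Ighg2c at 1.34 and 0.539. Over the 10 classes Igkc ranged 6.61-fold, from 4.15 CPM in oligodendrocyte-like to 27.4 in neutrophil-like cells (7 UMIs). Monocyte/macrophage-like cells were 1.91-fold (1.45 to 2.54) and T or NK cell-like cells 2.25-fold (1.40 to 3.52) above astrocyte-like cells. Barcodes that failed the filters held 149 constant-gene UMIs at day 7, with at most 30 in any, and 0 passed the rich limits. At day 14, 2 failing barcodes did, with at most 405 UMIs.

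Ighm behaved unlike the other members outside rich barcodes. At day 14 it ranged 10.7-fold over classes, from 17.2 CPM in oligodendrocyte-like to 184 in microglia-like cells, and Ighm per 100 Igkc UMIs ranged from 5.61 to 54.1. In microglia-like cells, the resident phagocytes, Ighm was at 321 CPM in sham, 125 at day 1, 78.9 at day 3, 153 at day 7 and 184 at day 14. These cells held 92.2%, 86.3%, 67.2% and 77.8% of the library's Ighm UMIs from sham to day 7 and 10.6% at day 14. The level was 18.7-fold that of astrocyte-like cells in sham (14.3 to 24.9), 26.6-fold at day 1, 32.3-fold at day 3, 16.2-fold at day 7 and 5.36-fold at day 14 (4.15 to 7.03). Igkc had a ratio of 0.86 between the same classes at day 1 (0.40 to 1.80), 11.9 at day 3 (2.91 to 105, on 21 and 2 UMIs), 1.28 at day 7 and 0.94 at day 14 (0.87 to 1.03), and too few UMIs in sham. At days 1, 7 and 14 the interval of the Igkc ratio lay wholly below that of Ighm, and at day 3 the intervals overlapped.

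The Ighm signal of microglia-like cells was low per cell and broad. In sham 984 of 4492 cells had a UMI (21.9%, or 14.4% after thinning to 500 UMIs), against 1.58% and 0.553% of oligodendrocyte-like cells, with medians of 726 and 1506 UMIs. At day 14 the shares were 66.1% and 9.64% of microglia-like against 14.1% and 0.737% of oligodendrocyte-like cells. The most in any cell was 5 UMIs in sham and 20 at day 14. Within the class the log2 ratio to sham was -1.36 on day 1 (-1.49 to -1.24), and it was -2.02 on day 3 (-2.16 to -1.89). It was -1.07 on day 7 and -0.80 on day 14 (-0.90 to -0.71), so every injured library lay below sham. Cluster 2 held most of these cells in sham, 21 at day 1, 22 at day 3, 17 at day 7 and 3 at day 14. Ighd, from the same primary transcript in B cells, was at 7.90 CPM in sham and 2.95 at day 14 in this class, and Igkc at 0.545 and 340.

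Other immune classes had Ighm as well. T or NK cell-like cells were at 53.3 CPM at day 3, 88.2 at day 7 and 121 at day 14, and dendritic cell-like cells at 95.6 at day 7 and 128 at day 14. Monocyte/macrophage-like cells were at 159 CPM at day 1, on 29 UMIs in 90 cells, then 10.1, 51.4 and 85.9. Within that class the higher values came from cluster 26, at 39.4, 159 and 210 CPM on days 3, 7 and 14, against 39.9 and 55.0 in cluster 19 on days 7 and 14. Cluster 26 also had more Igkc, at 50.5 CPM on day 7 against 6.16 in cluster 19. Whether unswitched B cells below the limits add to these classes was not tested.

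**Figure D5:**
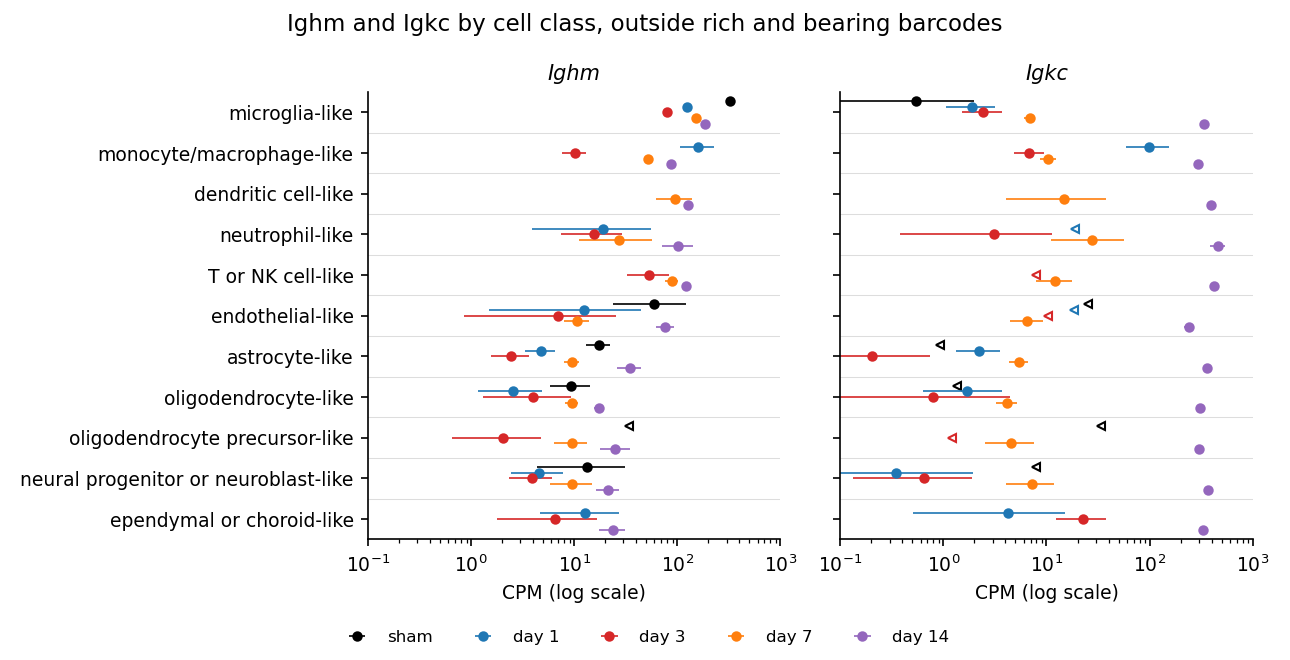
Ighm and Igkc in CPM (log scale) by cell class in each library, outside rich and bearing barcodes, for classes of at least 50 cells, with 95% counting intervals and open triangles for the floor of 3 UMIs where a class had 0. Igkc at day 14 lies between 240 and 457 CPM in all 11 classes, while Ighm in microglia-like cells lies above astrocyte-like cells in all 5 libraries.

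Over 45 sums of a library and a class, the genes outside the immunoglobulin loci with levels most like the summed constant genes were Ccl8 (Pearson r of log2 CPM plus 1, 0.743), Cd48 (0.736), BC147527 (0.734), Gm12250 (0.723), Cd79b (0.721), H2-Q7 (0.719), Cd74 (0.706), Calhm6 (0.705), Gm36738 (0.702) and Gatd1 (0.701). The members themselves had r from 0.587 (Ighg3) to 0.911 (Igkc) with the sum they belong to. The sums share libraries and depth, so these values only describe likeness. Ccl8, a chemokine, was highest in monocyte/macrophage cells of day 14 at 637 CPM, and Cd79b in the same class at day 1 at 85.8 CPM. Outside bearing barcodes, that class had the highest Ighm and Igkc levels of the 8 classes of day 1. These were 159 and 98.7 CPM, on only 29 and 18 UMIs. Microglia-like cells held 86.3% of the Ighm UMIs of that library.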

How the data were processed

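The deposited values are raw UMI counts per gene and barcode. The authors produced these counts using Cell Ranger 4.0.0, per the file headers. The submitters' processing notes list Seurat 3.2.0 and STAR 2.5.37 without a stated role, beside GRCm38 and mm10. Gene positions came from GENCODE mouse release 21, which held all 55450 gene IDs. The 9 genes, the lists and the limits were chosen with earlier results of these data known.

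Barcodes were kept with at least 500 UMIs, 200 genes and at most 20% mitochondrial UMIs, and Scrublet doublets were removed (8.52%, 7.35%, 3.75%, 3.16% and 3.30% of barcodes from sham to day 14), leaving 55321 of 60574. At day 7, 12.7% of barcodes exceeded the mitochondrial limit. Clusters (scanpy 1.11.5, 2000 variable genes without immunoglobulin genes, 30 components, 15 neighbours, Leiden resolution 1, no batch correction) numbered 33, and 30 were named "X-like" from markers of 17 classes where at least 3 were detected. Class levels leave out rich and bearing barcodes. Where a gene had 0 UMIs in sham, a floor of 3 UMIs replaced it. Intervals are exact Poisson, conditional binomial or Clopper-Pearson at 95% (scipy 1.17.1), and cover counting error only, since UMIs of a library are not replicates of a condition. Genes were counted as past 2-fold with a mean of at least 1 CPM. For shares, 500 UMIs were drawn at random from each kept barcode, none of which was shallower.

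Named were all 9 genes, the genes of 8 lists (84 genes) with at least 50 CPM in rich barcodes or 10 CPM in a library, the 15 genes with the highest ratio in rich barcodes among those with at least 100 CPM, the 10 genes most like the summed constant genes, and the leading variable genes; of the secretory pathway and library sums, the remaining genes are given by range or count. Ighd, Ighe, Ccr9, Il10, Pax5 and Fcer2a fall outside that rule and were named after their values were seen. Some listed genes are not reported here. Alternatives were kept doublets, 1000 UMIs per barcode, at most 10% mitochondrial UMIs, other rich limits, scaling by trimmed mean of M values, leaving out the leading barcode, all barcodes of a class, resolution 2 and other level filters. The 2-fold counts and the intervals of ratios were tested on simulated library sums, and the other steps were not.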

Additional observations from a re-analysis of the deposited data

Results flagged for a closer look

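A barcode outside the kept barcodes carried an IgA signal in the day 1 library, where 0 kept barcodes passed the rich limits. It had been removed as a called doublet. It held 2750 UMIs over 614 genes, of which the 7 constant genes made up 56.9%. Igha had 577 UMIs, 100% of its heavy-chain UMIs, beside 989 of Igkc and 91 of Jchain, or 15.8 Jchain UMIs per 100 heavy-chain UMIs. Its leading heavy-chain variable gene was Ighv2-2 with 8 UMIs. The kept barcodes of day 1 had 26 Igha UMIs in 26 barcodes, and sham had 0.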

How the results depend on the processing

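Of 135 values recomputed for 32 results under 12 alternatives, 98 stayed and 37 moved. Staying meant lying within the counting interval of the reported value, or near it for numbers of rich barcodes. Among those that moved, the summed level at day 3 went from -0.43 to 0.093 with at least 1000 UMIs per barcode, where its interval covered 0 (-0.056 to 0.244). The rich barcodes of day 14 numbered 102 to 107 throughout. The cause of a move was not tested except where barcodes were left out or added. With called doublets kept, the summed level against sham was -0.24 (log2) at day 1 and 6.94 at day 14, day 1 had 1 rich barcode and an IgA share of 32.3%, and the 10 leading barcodes held 56.5% at day 1 and 69.2% at day 3, against 9.20% and 70.7%. With at least 1000 UMIs per barcode the summed level was -0.86, 0.093, -0.19 and 7.53 at days 1, 3, 7 and 14, and the 10 leading barcodes held 7.65% in sham and 6.92% at day 1. With at most 10% mitochondrial UMIs the day 7 value was -0.55. Without the leading barcode of each library the day 3 value was -1.20, the IgA share 32.8% at day 3 and 16.6% at day 14, and the share of the 10 leading barcodes 50.05% and 17.96%. With trimmed mean of M values scaling the summed level was -0.26, -0.47 and 7.47 at days 3, 7 and 14, from library factors of -0.18, -0.23 and -0.45 (log2). In microglia/macrophage-like cells of day 14 the summed level was 634 CPM, 618 at resolution 2 and 20982.5 with rich and bearing barcodes included. With a mean of at least 10 CPM the background was 7.63% higher and 7.66% lower at day 1, 9.37% and 17.5% at day 3, 4.62% and 9.48% at day 7, and 7.09% and 18.98% at day 14. With no level filter it was 11.9% lower at day 1, 14.1% higher and 17.3% lower at day 3, 9.69% and 16.1% at day 7, and 9.36% higher at day 14. No paired analysis was possible because each group has 1 library. Depth was lowest in sham, where a gene could go unseen below 0.305 CPM, against 0.0248 CPM at day 14. Differences between mice, dissections and captures cannot be told apart from the time after injury.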
